A study of Homo sapiens with 6 samples.

Results

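The conjugation enzymes examined here were the UDP-glucuronosyltransferases (UGT), the cytosolic sulfotransferases (SULT) and the soluble glutathione S-transferases (GST). These families were chosen with earlier results of these data known. Members were taken by a symbol pattern for numbered UGT, SULT and GST class A, K, M, O, P, T or Z genes. UGT8 and GSTT2B did not match the pattern. Symbols that mark a pseudogene were left out, but GSTT2, a polymorphic pseudogene in GENCODE 29, was kept. This gave 50 of the 50868 genes in the table: 21 UGT, 13 SULT and 16 GST genes. They were measured by RNA sequencing of total RNA from Huh7, an established human hepatoma cell line. In the 3 overexpression libraries the cells had been transfected with a plasmid carrying hsa_circ_0098181, a circular RNA of the SOX5 gene, and in the 3 control libraries with its control plasmid. Both groups received Lipofectamine 2000, and RNA was taken after 48 h. Transfection was transient, so a library averages over cells that took up the plasmid and cells that did not, and nothing in the labels says whether replicates were separate cultures, so that p-values measure only the spread between these libraries. The comparison asks whether the circle altered the expression of this second phase of drug and hormone metabolism.

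UGT1 and UGT2 enzymes of the endoplasmic reticulum transfer glucuronic acid from UDP-glucuronic acid to bilirubin, bile acids, steroids and drugs. SULT enzymes of the cytosol transfer a sulfonate group from the donor PAPS to steroids and phenols, and GST enzymes join glutathione to electrophiles. Each product is more soluble in water than its parent and leaves the cell through transporters, and the liver is the chief site of these reactions.

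Library totals were between 11130902 and 14138262 gene counts. SOX5, whose counts can include reads of the circle, rose by 5.88 on the log2 scale (SE 0.16, edgeR adjusted p 2.6e-06) and so matched the labels. The hepatocyte origin was checked with 10 marker genes, all of which were measured. AFP was at 12652 ± 96.8 CPM with overexpression and 12149 ± 1253 CPM in the control (SD, n = 3 each). CPM are read counts scaled to the TMM library size. Of the 10 markers, 6 had a log2 fold change above 0 and 4 below. APOB was at -0.39 (SE 0.17, unadjusted p 0.0459, adjusted p 0.797 in edgeR) and HNF4A at -0.54 (SE 0.27), both with overlapping groups. Of 13 markers of other cells, 6 passed the filter on low counts, and the summed level of the 13 was 672 to 728 CPM with overexpression and 612 to 679 CPM in the control. LYZ and KRT19 held most of that sum, and whether other cells had a part in any result was not tested. The mitochondrial share of counts was highest in control replicate 1, at 9.29%, against 6.32% to 7.04% in the other 5 libraries.

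Members of these families arose by gene duplication, and some remain so alike that counts can pass between them. In GENCODE 29 transcripts, 60.2% of the 31-base stretches of UGT2B11 also occurred in other genes, most often in UGT2B28, which held 32.0% of them. The share was 52.5% for UGT2B10, 47.4% for GSTA1 and 30.7% for GSTA2, but 13.8% for UGT2B4, 10.2% for SULT2A1 and 0.047% for GSTP1. The likeness extends to the promoters. RefSeq promoter windows of 300 bases were matched for 42 of the 50 genes, and the 250 bases before the start site are printed for 2 pairs. UGT2B11 was chosen as the gene with the smallest p of all members and UGT2B10 as its close relative, and GSTA1 and GSTA2 as the alpha class pair with the highest log2 fold changes among the GST genes. Letters run 5′ to 3′ on the strand of the gene (GRCh38.p14), and capitals mark bases that differ from the partner in a pairwise alignment. The window of UGT2B11 lies at chr4:69214749-69214998 (minus strand), UGT2B10 at chr4:68815744-68815993 (plus strand), GSTA1 at chr6:52803817-52804066 and GSTA2 at chr6:52763476-52763725 (both minus strand).
UGT2B11: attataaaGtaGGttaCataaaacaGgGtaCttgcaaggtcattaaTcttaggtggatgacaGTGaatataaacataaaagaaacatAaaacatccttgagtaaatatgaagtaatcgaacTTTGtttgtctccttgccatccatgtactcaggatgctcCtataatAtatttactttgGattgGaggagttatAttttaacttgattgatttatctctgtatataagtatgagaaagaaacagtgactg
UGT2B10: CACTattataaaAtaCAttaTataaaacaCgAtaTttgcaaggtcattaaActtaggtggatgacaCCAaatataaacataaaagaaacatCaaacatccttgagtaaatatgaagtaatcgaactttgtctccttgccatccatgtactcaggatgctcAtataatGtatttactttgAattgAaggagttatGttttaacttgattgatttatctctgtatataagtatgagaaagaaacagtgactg
GSTA1: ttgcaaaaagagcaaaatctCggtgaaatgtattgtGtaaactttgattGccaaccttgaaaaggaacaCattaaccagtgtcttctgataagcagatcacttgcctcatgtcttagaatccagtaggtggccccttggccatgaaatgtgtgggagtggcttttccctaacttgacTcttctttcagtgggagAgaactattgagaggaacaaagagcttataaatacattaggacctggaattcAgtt
GSTA2: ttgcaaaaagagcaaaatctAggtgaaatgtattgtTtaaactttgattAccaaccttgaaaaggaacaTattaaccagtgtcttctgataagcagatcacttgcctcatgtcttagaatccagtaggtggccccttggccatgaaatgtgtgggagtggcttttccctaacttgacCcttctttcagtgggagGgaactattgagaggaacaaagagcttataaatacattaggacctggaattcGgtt

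The UGT2B11 and UGT2B10 windows were identical at 229 of 250 positions, and the GSTA1 and GSTA2 windows at 243 of 250. 5 motifs were searched on both strands of the 300-base windows. The antioxidant response element core TGACNNNGC was found on the antisense strand of both UGT2B windows, 217 bases before the start of UGT2B11 and 213 before that of UGT2B10. It overlaps there with the nuclear receptor half-site AGGTCA on the sense strand. The former occurred in 13.3% of all 35116 promoters and in 10 of the 45 promoters of these enzymes, and the latter in 13.8% and again in 10 of 45. The TATA box letters TATAAA lay 30 bases before the start of both GSTA1 and GSTA2. They also lay 183 and 248 bases before the start of UGT2B11, and 179, 230 and 244 before that of UGT2B10. These letters occurred in 11.5% of all promoters and 12 of 45 of the enzymes. The HNF1 half-site GTTAAT was in both GSTA windows, in 6.88% of all promoters and in 9 of 45 of the enzymes. The xenobiotic response element core GCGTG was in none of the 4 printed windows, in 36.5% of all promoters and in 13 of 45 of the enzymes. These are matches of letters and show no binding.

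Huh7 cells expressed all 3 families, and in each of them 1 gene stood highest. Per kilobase of exon, GSTP1, the pi class enzyme, stood at 459 CPM per kb as a mean of the 6 libraries and made up 75.2% of the GST level. It was followed by GSTO1, an omega class enzyme, at 77.1 CPM per kb, then GSTK1, the kappa class enzyme of mitochondria and peroxisomes, at 27.0. Among sulfotransferases SULT2A1, which sulfonates dehydroepiandrosterone and bile acids, stood at 23.7 CPM per kb and made up 50.5% of the family. SULT1A2 followed at 8.12 and the estrogen sulfotransferase SULT1E1 at 5.01, and the phenol sulfotransferase SULT1A1 at 4.20, though SULT1A1 had more counts than either. The SULT levels depend on the merged exon length, which is 8909 bases for SULT1A1 and 1987 for SULT2A1. Among UGT genes UGT2B4, which glucuronidates bile acids, stood at 35.4 CPM per kb and made up 58.6% of the family, ahead of UGT2B11 at 8.20 and UGT2B10 at 5.15. On the deposited FPKM values, which use another length, the shares of these 3 leading genes were 67.2%, 61.3% and 51.9%. SULT1A2, SULT1E1 and SULT1A1 kept their order there, at 4.15, 3.67 and 2.71.

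**Figure D1:**
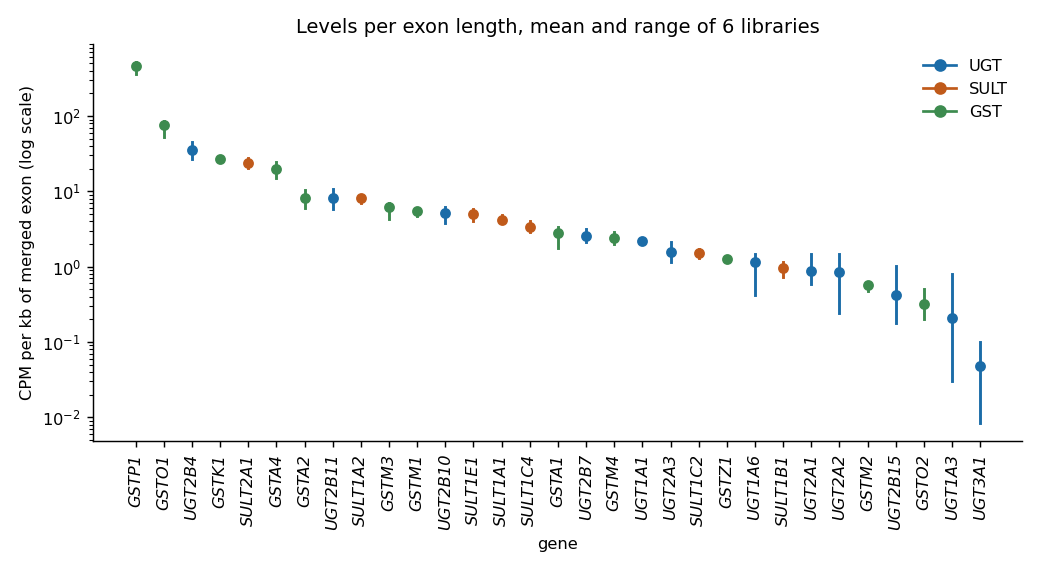
Level of each gene with counts in every library, in CPM per kb of merged exon on a log axis. Points are means of the 6 libraries and lines run from the lowest to the highest library; GSTP1 stands highest, at 459 CPM per kb.

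The leading gene of each family was the same in all 6 libraries. GSTP1 held between 68.1% and 70.5% of the GST counts in each library, SULT2A1 between 29.7% and 35.8% of the SULT counts and UGT2B4 between 53.2% and 63.9% of the UGT counts. SULT1A1 came near SULT2A1 on counts, with 24.3% to 28.4% of the SULT counts. UGT2B11 held 13.2%, 14.8% and 14.98% of the UGT counts with overexpression and 8.13%, 11.03% and 12.4% in the control, without overlap. Such triplets give replicates 1, 2 and 3 in that order, overexpression first. At the other end, 8 genes had 0 counts in all 6 libraries. These were UGT2B17, UGT3A2, SULT1A4, SULT1C3, SULT2B1, SULT4A1, GSTA3 and GSTA5, and a count of 0 allows up to 0.212 to 0.277 CPM per library (3 counts; counting error only). That limit does not hold for SULT1A4, since 98.1% of its 31-base stretches occur in other genes and the rule for such reads is unknown, and it is less firm for UGT2B17 and GSTA5, for which the shares are 39.96% and 24.6%. UGT2B17 glucuronidates testosterone, SULT2B1 sulfonates cholesterol and SULT4A1 is known from the brain. 12 further genes were too low to be tested: UGT1A3, UGT1A4, UGT1A7, UGT1A9, UGT1A10, UGT2B15, UGT2B28, UGT3A1, SULT1A3, SULT6B1, GSTT2 and GSTM5. UGT2B15, an androgen-conjugating enzyme, reached 30 counts in 1 library and 4 to 13 in the other libraries. SULT1A3, which sulfonates dopamine, was listed at 0 to 3 counts, but 84.7% of its 31-base stretches occur in other genes, most of them in SULT1A4, so a count near 0 may not reflect its level.

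Overexpression did not change any of the 30 tested enzymes past the threshold. With edgeR's quasi-likelihood test and Benjamini-Hochberg adjustment over all 15055 genes tested, 0 members rose and 0 fell at an adjusted p under 0.05, and the smallest adjusted p was 0.665. Over all genes, 4 rose and 2 fell, which is 0.0266% and 0.0133%. At an unadjusted p under 0.05 there were 2 members, both higher with overexpression, where the table held 2.42% of genes higher and 3.08% lower. DESeq2 and limma also called 0 members, on 30 and 22 tested members, and counted 1 and 3 at an unadjusted p under 0.05.

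The estimates lay more often above 0 than below. 24 of the 30 tested members, or 80%, had a log2 fold change above 0, against 50.5% of all genes tested. Their median was 0.14, against 0.0023 for all genes. By family it was 0.091 for 11 UGT genes (8 above 0), 0.12 for 7 SULT genes (5 above 0) and 0.16 for 12 GST genes (11 above 0). The standard errors of single members ran from 0.088 for GSTK1 to 1.28 for UGT1A5, and neighbouring members that share sequence are not independent. The 3 values of one group all lay above those of the other for 7 tested members, 6 of them higher with overexpression and 1 lower, while 6.4% of all genes lay higher and 6.5% lower in this way. The 6 were UGT2B11, UGT1A8, SULT2A1, SULT1A1, SULT1A2 and GSTA2, and the gene lower was SULT1C2. An exact permutation test of 3 against 3 cannot give a p under 0.1, and gave 0.1 for these 7 genes. UGT1A3, too low to be tested, was also lower without overlap, with 1, 3 and 1 counts against 4, 4 and 23.

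**Figure D2:**
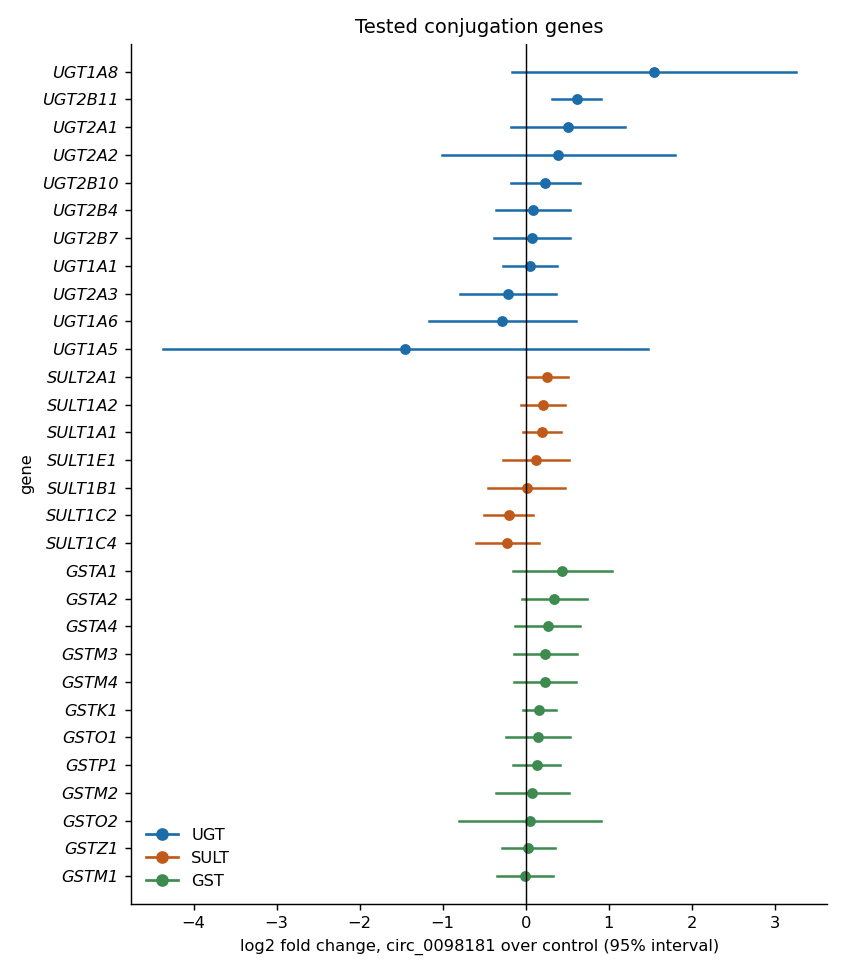
Log2 fold change (overexpression over control, x axis) of the 30 tested genes, ordered within family, with 95% intervals from edgeR. The intervals of UGT2B11 and SULT2A1 lie above 0, and no gene passed the adjusted threshold.

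UGT2B11 had the smallest p of the 30 tested members. It belongs to the UGT2B branch, which conjugates steroids and lipids, and lies at 69004618 to 69214731 on chromosome 4 (GRCh38, minus strand). With overexpression it reached 25.3, 22.0 and 22.3 CPM, whereas the control libraries stood at 13.5, 16.4 and 15.6 CPM, from 276 to 358 and 146 to 193 counts. Each overexpression library lay above each control library. In bulk RNA, more cells that express a gene and more RNA per cell cannot be told apart. The log2 fold change was 0.61 (SE 0.13, 95% interval 0.32 to 0.90), with an unadjusted p of 0.00116 and an adjusted p of 0.665 in edgeR, so it did not pass the correction. Part of its exons, 17.9% of the bases, overlap RP11-704M14.1 on the opposite strand, which held 8 to 25 counts per library and had a log2 fold change of -0.088 (SE 0.48). The gene's shared stretches with UGT2B28 and with pseudogenes make its count uncertain, and UGT2B28 was listed at 0 to 7 counts.

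The other tested UGT2B genes differed less. UGT2B4 was at 115, 80.4 and 79.2 CPM with overexpression and at 106, 83.9 and 68.1 CPM in the control, so that the groups overlapped (log2 fold change 0.09, SE 0.19). This estimate fell to -0.11 without overexpression replicate 1 and to -0.051 without control replicate 3. UGT2B10, an enzyme of amine glucuronidation whose promoter is close to that of UGT2B11, was at 11.9, 10.8 and 9.45 CPM with overexpression and 10.2, 9.96 and 7.24 CPM in the control. Its groups overlapped and its log2 fold change was 0.23 (SE 0.18). UGT2B7, which conjugates morphine, had a log2 fold change of 0.075 (SE 0.20). The UGT2B genes summed to 1 feature gave 0.19 (SE 0.16, edgeR adjusted p 0.829). That sum was 0.021 without overexpression replicate 1, 0.076 without control replicate 3 and 0.31 without control replicate 1, and UGT2B10 fell to 0.089 without control replicate 3 and to 0.15 without overexpression replicate 1. UGT2A1 and UGT2A2 share exons, and summed they gave 0.47 (SE 0.20) with an edgeR adjusted p of 0.796, while UGT2A3 was at -0.22 (SE 0.25).

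**Figure D3:**
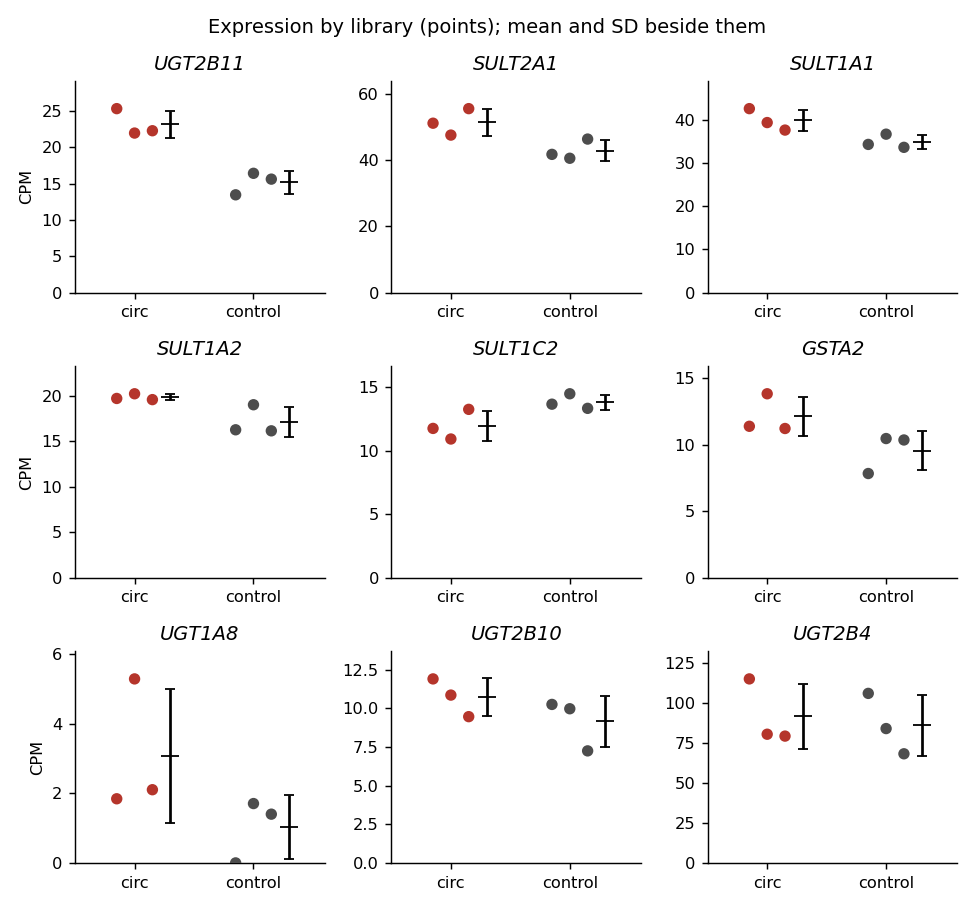
Expression in CPM (y axes, starting at 0) of 9 genes, with red points for the overexpression libraries and grey points for the control libraries. Bars give the mean and SD of 3 libraries; UGT2B4 and UGT2B10 overlap between groups and the other 7 genes do not.

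The UGT1A genes are a special case, because the 9 genes of chromosome 2 (GRCh38, 233617645 to 233773310) each splice a first exon of their own to the same later exons. From 40.6% to 80.0% of the exon bases of each UGT1A gene were shared with another gene, and a read in the shared exons does not tell them apart. UGT1A1, the bilirubin-conjugating enzyme, was at 9.98, 10.6 and 9.53 CPM with overexpression and 10.3, 9.03 and 9.71 CPM in the control (log2 fold change 0.05, SE 0.14). Its 6 values varied by 5.66% (CV), below the 8.99% that counting error alone would give. The smaller members jumped between libraries. UGT1A8, known mainly from the gut, had 26, 74 and 26 counts with overexpression and 0, 20 and 17 counts in the control. UGT1A6, which conjugates small phenols, had 97, 31 and 91 counts against 67, 90 and 74, so that its low library was the one in which UGT1A8 was highest. UGT1A5 had 0, 19 and 0 counts against 24, 20 and 0. UGT1A8 thus took from 0% to 26.4% of the UGT1A counts of a library and UGT1A6 from 11.1% to 37.9%.

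Summed, the jumps were gone. The UGT1A counts were 291, 280 and 240 with overexpression and 222, 249 and 245 in the control, or 20.6, 19.98 and 19.4 against 20.5, 21.2 and 20.2 CPM. The 6 values varied by 3.03% (CV), where counting error would give 6.27%. The log2 fold change of the sum was -0.044 (SE 0.10, 95% interval -0.28 to 0.19), whereas UGT1A8 alone gave 1.54 (SE 0.75) and UGT1A5 alone -1.45 (SE 1.28), neither past the threshold (edgeR adjusted p 0.797 and 0.830). UGT1A8 fell to 0.90 without overexpression replicate 2 and to 0.99 without control replicate 1. The values of single UGT1A genes cannot be read as levels of single enzymes, UGT1A1 included, since 49.9% of its exon bases are shared, and UGT1A8 counts among the 6 genes above that did not overlap.

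**Figure D4:**
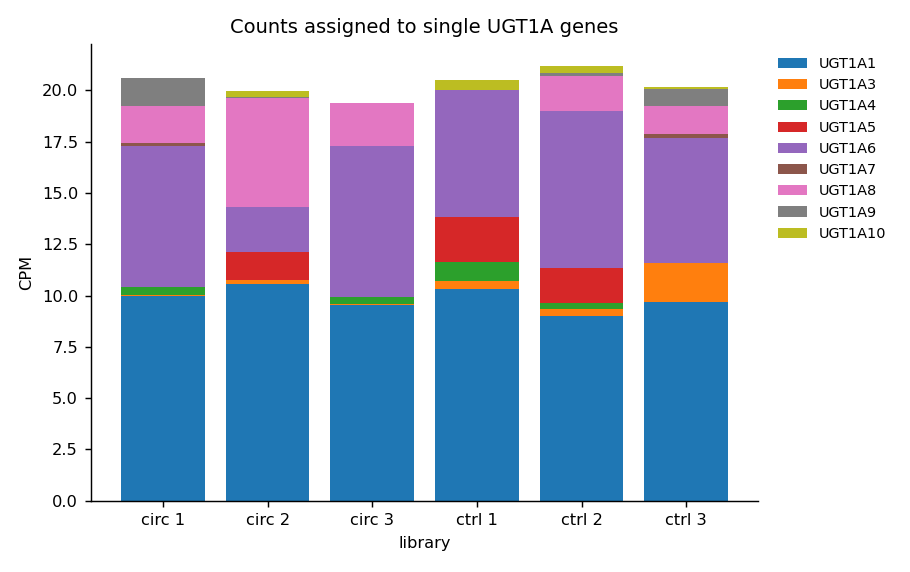
CPM (y axis) counted to each UGT1A gene, stacked, in the 6 libraries (x axis; circ, overexpression; ctrl, control). Bars reach 19.4 to 21.2 CPM in each library, while the parts of UGT1A5, UGT1A6 and UGT1A8 differ between libraries of the same group.

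Among sulfotransferases, SULT2A1, SULT1A1 and SULT1A2 lay higher with overexpression and SULT1C2 lower, each without overlap and none past the adjusted threshold. SULT2A1 (chromosome 19, 47870466 to 47886397, minus strand) was at 51.1, 47.5 and 55.5 CPM with overexpression and 41.7, 40.5 and 46.3 CPM in the control. The lowest overexpression value was thus close to the highest control value. The log2 fold change was 0.26 (SE 0.11, 95% interval 0.020 to 0.50), with an unadjusted p of 0.0372 and an adjusted p of 0.797 in edgeR. SULT1A1 was at 42.6, 39.4 and 37.7 CPM against 34.3, 36.7 and 33.7 CPM (log2 fold change 0.19, SE 0.10). SULT1A2, its neighbour on chromosome 16, was at 19.7, 20.2 and 19.6 CPM against 16.2, 19.0 and 16.1 CPM (0.21, SE 0.12). These neighbours share 31-base stretches, 34.5% of those of SULT1A2 and 23.5% of those of SULT1A1, and the SULT1A genes summed gave 0.19 (SE 0.093, edgeR adjusted p 0.797), again without overlap.

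SULT1C2 was at 11.8, 10.9 and 13.25 CPM with overexpression and 13.7, 14.5 and 13.33 CPM in the control, a log2 fold change of -0.21 (SE 0.13) and a gap of less than 0.1 CPM between the nearest values. SULT1C4, which lies near it on chromosome 2, was at -0.22 (SE 0.16) with overlap. SULT1E1 was at 0.12 (SE 0.17) and SULT1B1, which acts on thyroid hormones, at 0.010 (SE 0.20). The 13 SULT genes together reached 150.2, 145.1 and 155.1 CPM with overexpression and 137.7, 136.4 and 135.4 CPM in the control. These totals did not overlap, and SULT2A1 and SULT1A1 held the largest parts of them. The totals of the other families overlapped between groups. They were 148.9 to 192.3 against 126.0 to 165.7 CPM for UGT and 1203 to 1420 against 1008 to 1290 CPM for GST.

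Of the 12 tested GST genes, 11 had estimates above 0 and none passed the threshold. GSTP1 (chromosome 11, 67583595 to 67586660, plus strand) was at 998, 936 and 819 CPM with overexpression and 703, 910 and 899.6 CPM in the control. The highest control value exceeded the lowest overexpression value, and the log2 fold change was 0.13 (SE 0.12, 95% interval -0.15 to 0.42). With a mean of 11095 counts its counting error was 0.949%, and the 6 values varied by 11.8% (CV). GSTO1, which also reduces dehydroascorbate, was at 147, 129 and 136 CPM against 90.1, 135 and 146 CPM (0.15, SE 0.17). GSTK1 was at 124, 115 and 123 CPM against 106, 115 and 102 CPM (0.16, SE 0.088). In GSTO1 a single control library lay apart, and in GSTK1 control replicate 2 reached the overexpression range.

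GSTA4, which clears the lipid peroxidation product 4-hydroxynonenal, was at 52.7, 51.5 and 35.4 CPM with overexpression and 33.0, 40.9 and 42.4 CPM in the control (0.26, SE 0.17). GSTM3 was at 31.01, 30.9 and 33.4 CPM against 20.1, 32.1 and 28.6 CPM (0.24, SE 0.17). GSTM1, the mu class gene that is absent from many human genomes, was at 15.1, 14.99 and 11.7 CPM against 14.4, 12.9 and 14.9 CPM. It had a log2 fold change of -0.009 (SE 0.15), and was the 1 tested GST gene below 0. GSTM1 shares 62.3% of its 31-base stretches with other genes, and the GSTM genes summed gave 0.17 (SE 0.094, edgeR adjusted p 0.797), without overlap. GSTM4 was at 0.23, GSTM2 at 0.078, GSTO2 at 0.046 and GSTZ1, an isomerase of tyrosine breakdown, at 0.028.

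The liver alpha class enzymes had the highest estimates of the family. GSTA2 was at 11.4, 13.8 and 11.2 CPM with overexpression and 7.84, 10.5 and 10.4 CPM in the control, without overlap (log2 fold change 0.34, SE 0.17, 95% interval -0.043 to 0.73). GSTA1 was at 0.44 (SE 0.26) with overlap. The 4 alpha class genes GSTA1, GSTA2, GSTA3 and GSTA5 summed gave 14.8, 17.3 and 14.14 CPM against 10.1, 13.6 and 12.2 CPM. The sum had a log2 fold change of 0.36 (SE 0.16), an unadjusted p of 0.0454 and an adjusted p of 0.797 in edgeR.

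Control replicate 1 was the lowest of the 6 libraries for 6 of the 12 tested GST genes, and overexpression replicate 1 was the lowest for 0. Over all 15055 genes control replicate 1 was the lowest library for 26.5% and the highest for 26.6%, so it stood at the ends more often than the others. Without it, the log2 fold changes became -0.033 for GSTO1, 0.022 for GSTP1, 0.066 for GSTM3, 0.16 for GSTA4 and 0.22 for GSTA2, and the median of the GST genes 0.11. Other single libraries moved GSTA4 to 0.16 (without overexpression replicate 1) and 0.43 (without overexpression replicate 3), GSTM3 to 0.38 (without control replicate 2), and GSTP1 to 0.067 and 0.21 (without overexpression replicates 1 and 3). Without control replicate 3 the median of the GST genes was 0.24. Control replicate 1 was also the library with the higher mitochondrial share given above, and the part of this in the GST values was not tested. For the 30 tested members together, overexpression replicate 1 was the highest library for 13 and control replicate 3 the lowest for 10, where over all genes these shares were 19.1% and 16.4%.

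**Figure D5:**
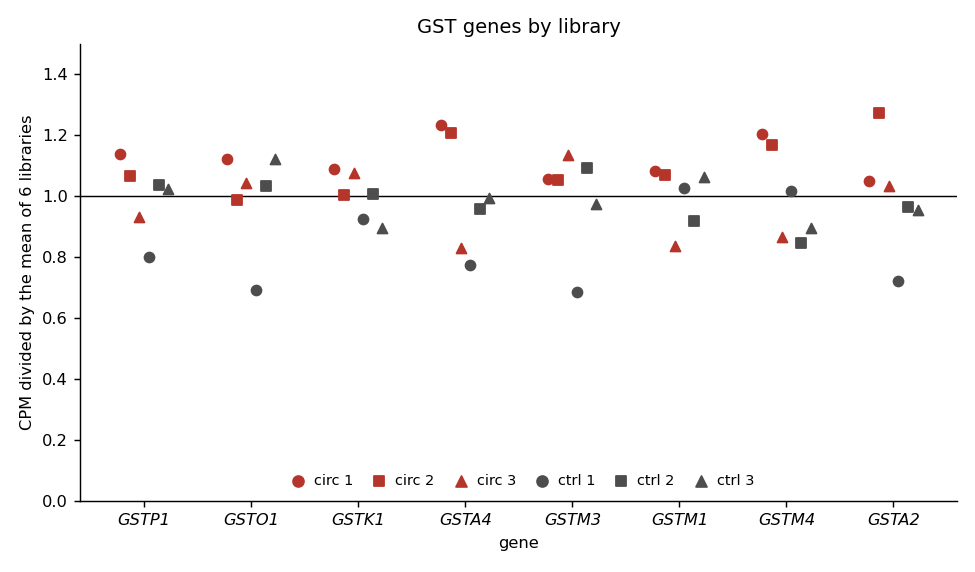
CPM divided by the gene's mean over 6 libraries (y axis) for 8 GST genes, with red for overexpression, grey for control and a marker shape per replicate. Control replicate 1 is the lowest point for GSTP1, GSTO1, GSTA4, GSTM3 and GSTA2 but not for GSTM1 or GSTM4.

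Cofactor supply, other conjugating enzymes, efflux pumps and regulators were read from the same fit. Of 108 such genes in 9 lists, 96 were tested, 0 rose and 0 fell (edgeR adjusted p), and 6 higher and 1 lower had an unadjusted p under 0.05. Over all genes tested, 2.42% were higher and 3.08% lower at that unadjusted level. Without overlap between groups, 9 of the 96 lay higher and 4 lower, against 6.4% and 6.5% of all genes. For glucuronidation, 3 of 6 cofactor genes were above 0 (median 0.051), and UGDH, which makes UDP-glucuronic acid, was at 333 ± 6.98 CPM with overexpression and 334 ± 42.5 CPM in the control (SD, n = 3 each). For sulfation it was 6 of 9 (median 0.030), with the PAPS transporter gene SLC35B2 at 0.14 (SE 0.13). For glutathione it was 9 of 14 (median 0.050). SLC3A2 and SLC7A11, the subunits of the cystine importer, were at 0.27 (SE 0.20) and -0.20 (SE 0.12). None of these differences passed the threshold.

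Among the other conjugating enzymes 11 of 12 estimates were above 0, with a median of 0.20. TPMT, which methylates thiopurine drugs, was at 38.2, 37.8 and 37.5 CPM with overexpression and 31.01, 31.8 and 32.9 CPM in the control, without overlap (log2 fold change 0.24, SE 0.093, unadjusted p 0.0287, adjusted p 0.797 in edgeR). A list of microsomal glutathione transferases and relatives of GST had 5 estimates above and 5 below 0. EEF1G, CLIC1, CLIC4, LANCL1 and VARS, which are in it for a GST-like fold or glutathione binding and include a translation elongation factor and a tRNA synthetase, gave 2 of those above and 3 of those below. The microsomal enzyme MGST2 had 0.34 (SE 0.13, unadjusted p 0.0354) with overlapping groups. A list of hydrolases of conjugates, mercapturate enzymes, epoxide hydrolases and carboxylesterases had 9 of 13 above 0 (median 0.061). For the conjugate efflux pumps 2 of 7 were above 0 and 5 below, with a median of -0.12, and the difference from the enzymes was not tested. ABCC3, which exports glucuronides to the blood, was at 32.6, 33.9 and 32.0 CPM with overexpression and 39.8, 45.2 and 37.9 CPM in the control, without overlap (-0.32, SE 0.11, unadjusted p 0.0161). ABCC2, the pump of the bile canaliculus, was also lower without overlap, at 326 ± 24.9 against 354 ± 4.33 CPM (SD, n = 3 each; -0.12, SE 0.086).

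Of 15 tested regulators 9 were above 0 and 6 below (median 0.069), and 3, all higher, had an edgeR unadjusted p under 0.05. Over all genes tested, 2.42% were higher and 3.08% lower at that level. The lowest estimate was that of HNF4A, at -0.54 (SE 0.27) with overlapping groups. NFE2L2 encodes NRF2, the factor that acts on antioxidant response elements. It was at 511, 228 and 471 CPM with overexpression and 179, 217 and 126 CPM in the control, a log2 fold change of 1.21 (SE 0.30) with an adjusted p of 0.797 in edgeR. Its lowest overexpression value was close to its highest control value, and 20.9% of its exon bases overlap other genes. PPARA, the target gene of the study, was at 24.2, 7.42 and 11.4 CPM against 6.37, 5.45 and 7.32 CPM. Overexpression replicate 1 lay apart, and replicate 2 was close to the highest control value. The log2 fold change of PPARA was 1.17 (SE 0.40), and that of CEBPA, a liver factor, 0.32 (SE 0.13). Both had an adjusted p of 0.797 in edgeR. Of 15 NRF2 target genes outside the conjugation families 10 were above 0 and 5 below (median 0.051). HMOX1, the haem-degrading oxygenase, was at 0.26 (SE 0.10, unadjusted p 0.0318, adjusted p 0.797 in edgeR). The 5 below 0 were TXNRD1 (-0.25), SLC7A11 (-0.20), GCLC and AKR1B10 (both -0.18) and ABCC2 (-0.12). Among them GCLC and ABCC2 lay lower without overlap.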

How the data were processed

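Total RNA of 6 Huh7 libraries, 3 per group, was sequenced, and groups and replicate numbers followed the sample titles. 1 table deposited by the authors held whole-number read counts per gene and FPKM values. The submitters' processing notes name TopHat2 2.0.9 and hg38; the counting tool, its strand setting and its treatment of reads that match several genes are not given in the sources used here, so counts of similar or overlapping genes are uncertain. Of the gene IDs 98.5% were in GENCODE 29, 94.8% of them at the same position, and 42 of the 50 members matched exactly. Those at another position were UGT2B11, UGT2B15, UGT2B28, SULT1E1, GSTP1, GSTA3, GSTA5 and GSTM5, so their exon lengths and overlaps may not be those used for counting. Exon lengths are merged GENCODE 29 exons.

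Counts were tested in R 4.3.3 with edgeR 4.0.16: filterByExpr (minimum count 10), TMM, glmQLFit and glmQLFTest with group as the only term, two-sided, Benjamini-Hochberg over 15055 genes. Standard errors were derived from the F statistic, and 95% intervals from its degrees of freedom. The biological coefficient of variation was 16.1%. Exact two-sided permutation tests used log2(CPM + 0.5). No 2 libraries of a group were copies (chi-square over genes 7.45 to 15.1 per degree of freedom). Alternatives were RLE and upper-quartile scaling, DESeq2 1.42.0, no filter, a mean of at least 50 counts, limma 3.58.1 with trend on log2(FPKM + 1) of the deposited FPKM values, a replicate block, related genes summed, and omission of single libraries. The sums also hold genes that share few 31-base stretches, such as UGT2B4 (13.8%) and GSTM3 (9.75%), and so do not settle the counts of single genes. Chosen once the data had been seen were fits without mitochondrial genes, with UGT2A1 and UGT2A2 summed, and of the summed groups under the alternatives. Promoters are RefSeq sequences (GRCh38.p14). The members and lists were chosen with earlier results of these data known.

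Values in all 6 libraries are given for members with an adjusted or unadjusted p under 0.05, for those without overlap and a mean of at least 1 CPM, and for the 4 UGT, 3 SULT and 6 GST genes of highest mean CPM. Of the lists, genes with an unadjusted p under 0.05 and the 2 of highest mean CPM could be named; RP11-704M14.1 and other genes beyond this rule were named after their values were seen. GSTT1 was not analysed here.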

Additional observations from a re-analysis of the deposited data

How the results depend on the processing

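In each alternative, 0 members and 0 listed partner genes were called. Over the whole table DESeq2 called 8 genes higher and 20 lower, the replicate block gave 2 higher, and the 6 fits without 1 library gave 1 to 7 higher and 2 to 9 lower. Members at an unadjusted p under 0.05 numbered 1 with DESeq2, 4 without a filter and 1 to 3 when a library was left out, with 1 without overexpression replicate 1 and without control replicate 1. The median over the SULT genes was 0.018 without a filter, where 9 were tested, and 0.015 to 0.18 over the fits without 1 library, the lowest without control replicate 3. In those fits the median was 0.12 to 0.19 over all tested members and 0.053 to 0.27 over the UGT genes, the highest without control replicate 1, and 0.11 to 0.24 over the GST genes. On the deposited FPKM values the family share was 67.2% for GSTP1, 61.3% for SULT2A1 and 51.9% for UGT2B4. Of 266 values of named members and summed groups, 258 kept direction and side of the threshold and 8 reversed. GSTM1 was 0.0072 with upper-quartile scaling, 0.0068 with limma, and -0.072 to 0.10 without 1 library; UGT2B4 ran from -0.11 to 0.27 and GSTO1 from -0.033 to 0.29. UGT2B11 ran from 0.53 to 0.67, with adjusted p from 0.156 (DESeq2) to 0.979. Beyond the fewer libraries or genes in a fit, the cause of these moves was not tested. Replicate numbers did not pair the libraries (correlations of deviations -0.029, -0.012 and -0.031), and the replicate block changed no call of a member. With 3 libraries per group, small differences such as those seen here are not resolved.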

Other observations

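Relatives outside the symbol rule were read from the same fit. MGST1, a microsomal glutathione transferase, was at 217, 242 and 241 CPM with overexpression and 292, 235 and 241 CPM in the control, a log2 fold change of -0.13 (SE 0.11, edgeR adjusted p 0.813). Control replicate 1, the lowest library for 6 GST genes, was the highest for MGST1 and for GSTCD, a gene with a GST-like domain (37.3 CPM there, 22.7 to 25.0 CPM in the other 5 libraries). MGST3 was at 0.23 (SE 0.16) and UGT8, which makes galactosylceramide in myelin, at 0.052 (SE 0.13). SLX1A-SULT1A3, a readthrough gene that covers SULT1A3, held 52 counts over the 6 libraries, against 5 for SULT1A3 itself. It was not tested because of its low counts. Of the pseudogenes, UGT2B27P held 55 counts and UGT2B24P 31 counts in all. These genes were chosen after their values were seen.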
